A study of Homo sapiens with 28 samples.

Results

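The genes described here are 34 androgen-regulated and prostate luminal genes in LNCaP, an established line of metastatic prostate cancer cells that depends on androgen signalling. They were chosen by symbol from the 25369 genes in the 6 deposited tables of exon counts. All 34 had enough counts to be tested. Cells were reverse transfected with siRNA and later treated for 18 h, and each group held 4 libraries, from 4 independent experiments per the series' design text. DMSO siCtrl cells received a non-targeting siRNA and the solvent. TM siCtrl cells received the same siRNA and tunicamycin at 2.5 µg/mL, and TM PERKi siCtrl cells received the PERK inhibitor GSK2606414 at 100 nM as well. TM siPERK-1 and TM siPERK-3 cells carried either of 2 siRNAs against EIF2AK3, the gene of PERK, and TM siATF4-2 and TM siATF4-3 cells either of 2 against ATF4, all with tunicamycin. Every group used here that had the inhibitor or a targeting siRNA also had tunicamycin, and the labels name no androgen treatment.

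Androgen enters luminal cells of the prostate and binds its receptor, a steroid-hormone-activated transcription factor that then occupies enhancers of genes for secreted proteins, membrane proteins and enzymes. FOXA1 opens chromatin at many of these enhancers, and HOXB13 and the ETS factor SPDEF are further factors of the luminal lineage. Tunicamycin blocks N-glycosylation, so unfolded protein accumulates in the endoplasmic reticulum (ER), and PERK is an ER-resident kinase that then phosphorylates eIF2α, which lowers translation in general but raises synthesis of the transcription factor ATF4.

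Library totals ranged from 10794637 to 17253801 counts. Levels below are TMM-scaled CPM, that is, counts per library scaled to a common total, differences are log2 changes ± SE, and a gene was called at an edgeR quasi-likelihood p under 0.05 after Benjamini-Hochberg adjustment over all 14314 genes tested. The targeted transcripts followed their labels: EIF2AK3 differed from TM siCtrl by −1.86 and −2.05 with the PERK siRNAs, and ATF4 by −2.67 and −3.73 with the ATF4 siRNAs. Luminal epithelial markers were present in every group, with 10 genes summing to 3984 to 5434 CPM per library. The 5 basal markers summed to at most 1.55 CPM in any library, and TP63 was at 0 in all 28. The 8 stromal markers were mixed. COL1A2 was at 0 in all 28 libraries, but COL1A1 (13.9 to 40.2 CPM), VIM (7.34 to 36.0 CPM) and ACTA2 (4.49 to 96.9 CPM) had counts in every library. In bulk RNA, fewer cells of a type and less RNA per cell cannot be told apart.

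RefSeq promoter windows on GRCh38.p14 were matched for 24 of the 34 genes, 16 of them with a single window. The 250 bases before the start site are printed for FOXA1 and SPDEF, which were lower with the PERK inhibitor, and for OR51E1, ACPP (now ACP3), GNMT and STEAP1, which were higher with both PERK siRNAs. Each reads 5′ to 3′ on the strand of the gene, and capitals mark a CCAAT box on either strand.
FOXA1 (chr14:37595250-37595499, minus strand): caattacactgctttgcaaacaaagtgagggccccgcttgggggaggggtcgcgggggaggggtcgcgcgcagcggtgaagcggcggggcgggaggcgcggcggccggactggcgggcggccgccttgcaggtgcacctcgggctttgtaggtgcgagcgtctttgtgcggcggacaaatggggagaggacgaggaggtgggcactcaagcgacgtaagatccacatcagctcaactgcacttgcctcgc
SPDEF (chr6:34556330-34556579, minus strand): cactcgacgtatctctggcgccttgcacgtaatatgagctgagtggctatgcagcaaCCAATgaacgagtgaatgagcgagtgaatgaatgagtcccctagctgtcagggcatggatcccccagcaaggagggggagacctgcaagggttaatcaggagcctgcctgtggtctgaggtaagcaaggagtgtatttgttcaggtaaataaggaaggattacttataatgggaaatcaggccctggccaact
OR51E1 (chr11:4643732-4643981, plus strand): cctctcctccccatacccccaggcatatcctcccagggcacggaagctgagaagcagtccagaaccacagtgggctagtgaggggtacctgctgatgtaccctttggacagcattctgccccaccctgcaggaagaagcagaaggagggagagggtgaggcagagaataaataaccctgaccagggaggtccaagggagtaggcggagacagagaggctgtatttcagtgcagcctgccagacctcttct
ACPP (chr3:132317157-132317406, plus strand): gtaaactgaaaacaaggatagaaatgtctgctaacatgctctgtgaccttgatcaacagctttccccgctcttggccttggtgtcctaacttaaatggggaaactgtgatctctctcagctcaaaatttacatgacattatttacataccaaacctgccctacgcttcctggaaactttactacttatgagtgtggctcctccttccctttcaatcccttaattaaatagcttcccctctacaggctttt
GNMT (chr6:42960504-42960753, plus strand): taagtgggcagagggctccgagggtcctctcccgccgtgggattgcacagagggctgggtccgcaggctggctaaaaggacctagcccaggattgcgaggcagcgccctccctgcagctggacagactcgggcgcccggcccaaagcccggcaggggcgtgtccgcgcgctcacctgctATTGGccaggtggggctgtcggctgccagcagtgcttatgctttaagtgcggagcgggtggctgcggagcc
STEAP1 (chr7:90154219-90154468, plus strand): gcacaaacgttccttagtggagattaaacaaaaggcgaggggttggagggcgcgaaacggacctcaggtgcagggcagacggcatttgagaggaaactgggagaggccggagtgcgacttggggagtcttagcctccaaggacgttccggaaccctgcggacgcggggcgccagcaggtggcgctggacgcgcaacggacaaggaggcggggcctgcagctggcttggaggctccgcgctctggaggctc
The box of SPDEF begins at position −193 from the start site and that of GNMT at −71. Across the windows of these 24 genes, 21 of 39 windows, from 17 genes, held a CCAAT box on either strand, beside 32.0% of all 35116 windows of the same length in the table. The other motifs searched, also on both strands, had no match in the printed windows. A single AGAACA repeat, the core of an androgen response element, lay in 2 of the 39 windows and in 12.4% of all windows. The full androgen response element, an inverted repeat of AGAACA with 3 bases between, was matched in 1 of the 35116 windows, which is not among the 39. The forkhead motif TGTTTAC lay in 1 of the 39 windows against 2.98% of all, and the C/EBP-ATF element TGATGNAA in 0 of the 39 against 3.14% of all. These matches describe the letters of the windows and carry no reading about binding.

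In solvent-treated cells the 34 genes spanned a wide range of expression. Per kilobase of exon, SORD, which encodes sorbitol dehydrogenase, was the most abundant at 311 ± 18.3 CPM per kb (SD, n = 4), followed by the membrane serine protease TMPRSS2 at 216 ± 44.8 and FOLH1, the prostate-specific membrane antigen, at 187 ± 7.74. The spread of TMPRSS2 covers the level of FOLH1, so their order is not resolved. HOXB13 at 126 ± 6.21 CPM per kb, FOXA1 at 116.3 ± 5.22 and SPDEF at 100.2 ± 10.95 stood sixth, eighth and eleventh by mean. ABHD2 (120.5 ± 13.6) lay between HOXB13 and FOXA1, and SLC45A3 (106.9 ± 6.75) and NDRG1 (101.7 ± 16.6) between FOXA1 and SPDEF. The SD of ABHD2 covers HOXB13 and FOXA1, and that of SPDEF covers SLC45A3 and NDRG1, so these ranks are not resolved. The least abundant were OR51E2 at 5.17 ± 0.850, OR51E1 at 4.53 ± 0.356, the bZIP factor MAF at 4.14 ± 0.527 and the metalloreductase STEAP4 at 0.970 ± 0.0924 CPM per kb. The step from OR51E2 to OR51E1 is within the SD of OR51E2, and that from OR51E1 to MAF within the SD of MAF. The order of these genes is therefore not resolved. EAF2, next above OR51E2, stood at 7.85 ± 1.20 CPM per kb, and STEAP4 lies below all of them. Across the 7 groups OR51E1 varied most, with its highest group mean 24.5 times its lowest, and TARP, STEAP4 and TMPRSS2 followed at 9.92, 9.87 and 9.11 times.

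Tunicamycin lowered most of these genes. Of the 34, 28 were called lower and 3 higher in TM siCtrl than in DMSO siCtrl, where 34.7% of all genes tested were called lower and 34.3% higher. The median change was −0.83 for the 34 genes and 0.01 for all genes tested, and 16 of the 34 were called lower by 2-fold or more, beside 7.27% of all genes. The fall included 7 of the 12 prostate membrane and secreted proteins at 2-fold or more, but the group was not uniform: STEAP2, FOLH1 and the metabolic enzyme GNMT were higher, and FOXA1, the ubiquitin ligase HERC3 and the lipid hydrolase ABHD2 were not called (−0.05 ± 0.05, −0.03 ± 0.11 and 0.08 ± 0.06).

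The 3 luminal transcription factors responded unequally to tunicamycin. FOXA1 (chr14:38058757-38064325, minus strand, on hg19 as in all gene positions here, which come from the deposited exon models) stood at 392, 409, 402 and 369 CPM in the DMSO siCtrl libraries and 383, 383, 377 and 379.9 CPM in TM siCtrl, in the order of the replicate numbers. These ranges overlapped, and the difference was −0.05 ± 0.05 (adjusted p = 0.408). HOXB13 (chr17:46802127-46806111, minus strand) went from 379, 406, 389 and 361 CPM to 180.3, 156, 172 and 180.3 CPM. Every tunicamycin library lay below every solvent library (−1.16 ± 0.10, adjusted p = 1.57e-10). SPDEF (chr6:34505579-34524110, minus strand) went from 193, 207, 205 and 162 CPM to 114, 95.4, 118 and 95.02 CPM, again without overlap (−0.86 ± 0.09, adjusted p = 1.88e-09). The 31 other genes had a median change of −0.79, between the values of FOXA1 and SPDEF.

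The deepest fall was that of OR51E1, an olfactory receptor gene expressed in prostate epithelium (chr11:4665156-4676716, plus strand). Its solvent libraries held 13.1, 15.5, 13.3 and 14.3 CPM and its tunicamycin libraries 0.713, 0.831, 0.726 and 1.33 CPM, the latter resting on 10 to 20 counts per library (−3.96 ± 0.26, adjusted p = 2.68e-14). OR51E2, a related receptor gene 24.7 kb away, fell less, from 14.4 ± 2.37 to 5.93 ± 1.11 CPM (mean ± SD; −1.29 ± 0.15). TARP, a transcript of prostate epithelium from within the T cell receptor gamma locus (chr7:38299244-38313248, minus strand), went from 49.4, 44.9, 49.3 and 33.9 CPM to 4.87, 4.69, 4.72 and 6.10 CPM (−3.12 ± 0.17, adjusted p = 3.36e-15). Its reads may be shared with other genes of that locus, so its level is uncertain. STEAP4, a metalloreductase, fell from 4.44 ± 0.423 to 0.666 ± 0.270 CPM on 6 to 14 counts per tunicamycin library (−2.74 ± 0.25).

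TMPRSS2 (chr21:42836478-42880085, minus strand) carried 845, 831, 658 and 534 CPM in the solvent libraries and 193, 185, 200.3 and 197 CPM with tunicamycin. The tunicamycin libraries lay close together and all below the solvent range (−1.89 ± 0.13, adjusted p = 1.07e-11). ACPP, prostatic acid phosphatase, changed by −1.55 ± 0.29 and the cold-sensing channel TRPM8 by −1.43 ± 0.16. The prostein gene SLC45A3 (−0.47 ± 0.10), the transporter ABCC4 (−0.46 ± 0.05) and STEAP1 (−0.15 ± 0.05) fell by less. On the other side, FOLH1 changed by 0.16 ± 0.04 (adjusted p = 0.000926) and STEAP2 rose from 649.7 ± 25.0 to 824 ± 36.0 CPM (0.34 ± 0.05, adjusted p = 1.84e-08). STEAP1 and STEAP2 are neighbours on chromosome 7, with 46.9 kb between them, and their changes had opposite signs. A near-identical copy of FOLH1 exists, so its reads may be split.

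Among signalling genes, FKBP5, a co-chaperone of steroid receptors (chr6:35541362-35696360, minus strand), stood at 270.1, 275, 309 and 223 CPM with solvent and 65.9, 68.5, 68.8 and 75.5 CPM with tunicamycin (−1.95 ± 0.07, adjusted p = 7.90e-23). No libraries overlapped. Its exons overlap those of LOC285847, and reads of both would be pooled if strand was ignored in counting. CAMKK2, a kinase upstream of AMPK, changed by −1.16 ± 0.05. PMEPA1, an inhibitor of TGF-β signalling, changed by −1.03 ± 0.12, the receptor kinase gene BMPR1B by −0.64 ± 0.07 and C1orf116, a gene named for its androgen regulation, by −0.42 ± 0.10. The stress-responsive NDRG1 changed by −0.29 ± 0.12 (adjusted p = 0.0327), with overlapping libraries, and its call was lost when any 1 of DMSO siCtrl replicates 1 and 2 and TM siCtrl replicates 3 and 4 was left out (−0.19 to −0.27, adjusted p = 0.0790 to 0.153).

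All 4 other regulators of transcription fell. MAF (chr16:79627745-79634622, minus strand) went from 29.1, 29.7, 31.8 and 23.3 CPM to 4.28, 5.17, 5.80 and 9.75 CPM (−2.20 ± 0.19, adjusted p = 1.49e-10), and replicate 4 was the highest of its tunicamycin libraries. ELL2, an elongation factor of RNA polymerase II, changed by −1.04 ± 0.08, the zinc finger gene ZBTB10 by −0.31 ± 0.05 and EAF2, whose product binds ELL proteins, by −0.32 ± 0.13. EAF2 was no longer called when any 1 of DMSO siCtrl replicate 3 and TM siCtrl replicate 4 was left out (−0.20 to −0.21, adjusted p = 0.172 to 0.187). The 3 genes of chromosomes and cell division also fell. NCAPD3, a subunit of condensin, stood at 137, 147, 157 and 153 CPM against 37.4, 40.0, 35.0 and 45.0 CPM (−1.92 ± 0.07, adjusted p = 1.23e-25), while the centromere gene CENPN changed by −1.26 ± 0.09 and the M-phase phosphoprotein gene MPHOSPH9 by −1.03 ± 0.06.

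The metabolic genes ACSL3, SORD, GNMT and ABHD2, listed together with TPD52, moved in both directions. Of these 5 genes, 3 were called lower and 1 higher (median −0.12). ACSL3, an acyl-CoA synthetase, changed by −0.79 ± 0.08 and SORD by −0.65 ± 0.04. GNMT, glycine N-methyltransferase (chr6:42928500-42931618, plus strand), rose from 15.5, 16.2, 15.5 and 15.1 CPM to 22.3, 19.1, 21.0 and 18.4 CPM without overlap (0.38 ± 0.08, adjusted p = 0.000127), although its exons overlap PEX6. TPD52 changed by −0.12 ± 0.05 (adjusted p = 0.0181), a small difference whose call was lost when any 1 of DMSO siCtrl replicates 1 and 2 and TM siCtrl replicates 1 and 4 was left out (−0.09 to −0.11, adjusted p = 0.0515 to 0.0919). Summed stromal markers moved with tunicamycin as well, from 34.8 to 39.7 CPM per library in DMSO siCtrl to 75.7 to 103 CPM in TM siCtrl, mainly through ACTA2. The 6 neuroendocrine markers summed to 48.0 to 66.4 CPM and 16.8 to 22.7 CPM, with ENO2 the called decrease, and the 5 basal markers to at most 1.55 CPM in any library. The part of these markers in the changes of the 34 genes was not tested.

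**Figure D1:**
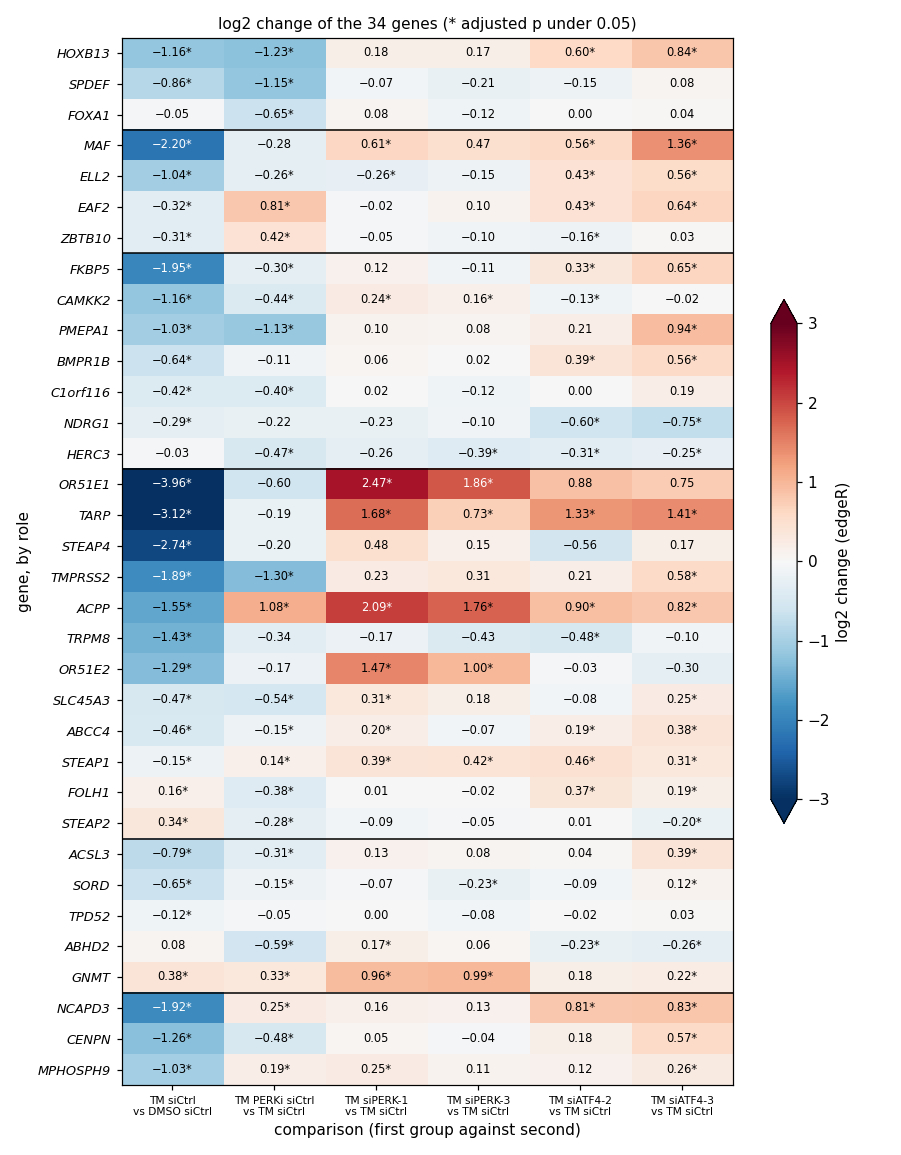
Log2 change of each of the 34 genes (rows, grouped by role) in the 6 comparisons with a control group (columns). Blue is lower and red higher in the first group named, and an asterisk marks an adjusted p under 0.05. The first column is mostly blue, with 28 genes called lower. OR51E1, ACPP, TARP and OR51E2 are red in both PERK siRNA columns. ACPP, TARP and, without a call, OR51E1 are also red in both ATF4 siRNA columns, and ACPP is red in the inhibitor column.

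The remaining comparisons ask how these levels changed under tunicamycin when PERK was inhibited or when PERK or ATF4 was depleted. Those with TM siCtrl as the control group share its 4 libraries, so their values stand side by side and are not independent of each other.

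With the PERK inhibitor, the 3 luminal transcription factors were all lower than with tunicamycin alone, and so was a large share of the target genes. In all, 18 of the 34 genes were called lower (17.5% of all genes tested) and 7 higher (18.2% of all). The median change was −0.28 over the 34 genes and −0.26 over the 31 that are not among the 3 factors. The largest decreases among the latter were in TMPRSS2 and PMEPA1, and the largest increases in ACPP and EAF2.

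HOXB13 stood at 70.9, 71.9, 61.9 and 89.1 CPM with the inhibitor, each library below the lowest of TM siCtrl, and the difference was −1.23 ± 0.10 (adjusted p = 1.60e-09). Its mean of 73.4 ± 11.4 CPM was 19.1% of the solvent mean. SPDEF stood at 45.4, 49.0, 45.7 and 49.7 CPM (−1.15 ± 0.10, adjusted p = 3.92e-10), likewise below every tunicamycin library. FOXA1, which tunicamycin alone left at a level overlapping the solvent libraries, held 226, 236, 241 and 267 CPM with the inhibitor (−0.65 ± 0.05, adjusted p = 7.55e-14). The inhibitor group was the lowest of the 7 groups for all 3 factors.

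TMPRSS2 fell further, to 73.4, 79.5, 64.6 and 97.6 CPM (−1.30 ± 0.14, adjusted p = 1.16e-07), which is 10.98% of the solvent mean. PMEPA1 held 56.5, 55.1, 71.5 and 70.9 CPM in TM siCtrl and 26.8, 27.2, 25.8 and 35.8 CPM with the inhibitor (−1.13 ± 0.14, adjusted p = 9.62e-07). Neither gene's libraries overlapped those of TM siCtrl, and in both replicate 4 was the highest of the inhibitor libraries. ABHD2 (−0.59 ± 0.06), SLC45A3 (−0.54 ± 0.10), CENPN (−0.48 ± 0.09) and HERC3 (−0.47 ± 0.11) were also lower without overlap. CENPN overlaps the exons of CMC2. CAMKK2, C1orf116, FOLH1, ACSL3, FKBP5, STEAP2, ELL2 and SORD were called lower with changes between −0.44 and −0.15. ABCC4 completed the list at −0.15 ± 0.05 (adjusted p = 0.0285), and its call was lost when any 1 of TM siCtrl replicates 2, 3 and 4 and TM PERKi siCtrl replicates 3 and 4 was left out (−0.12 to −0.14, adjusted p = 0.0699 to 0.110).

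ACPP rose with the inhibitor from 13.97, 16.1, 20.02 and 21.9 CPM to 28.7, 32.0, 34.1 and 56.1 CPM (1.08 ± 0.31, adjusted p = 0.00767). EAF2 rose from 6.60, 6.95, 7.26 and 4.84 CPM to 11.8, 12.1, 11.6 and 9.70 CPM (0.81 ± 0.13, adjusted p = 2.80e-06), with its mean at 141% of the solvent mean. ZBTB10 (0.42 ± 0.05) and GNMT (0.33 ± 0.08) were higher without overlap of libraries, and NCAPD3 changed by 0.25 ± 0.07 with overlap. MPHOSPH9 (0.19 ± 0.06, adjusted p = 0.0127) lost its call when any 1 of TM siCtrl replicate 1 and TM PERKi siCtrl replicate 4 was left out (0.16 to 0.17, adjusted p = 0.0507 to 0.0565). STEAP1 (0.14 ± 0.05, adjusted p = 0.0222) lost it when any 1 of TM siCtrl replicate 3 and TM PERKi siCtrl replicate 4 was left out (0.09 to 0.13, adjusted p = 0.0670 to 0.188). The 3 strongest decreases with tunicamycin were not called here: OR51E1 differed by −0.60 ± 0.49 (adjusted p = 0.375), TARP by −0.19 ± 0.23 (adjusted p = 0.577) and STEAP4 by −0.20 ± 0.38 (adjusted p = 0.733). OR51E1 rested on 2 to 16 counts per inhibitor library. Summed stromal markers were 66.4 to 68.7 CPM and neuroendocrine markers 10.3 to 17.2 CPM in the inhibitor libraries, and their part was not tested.

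**Figure D2:**
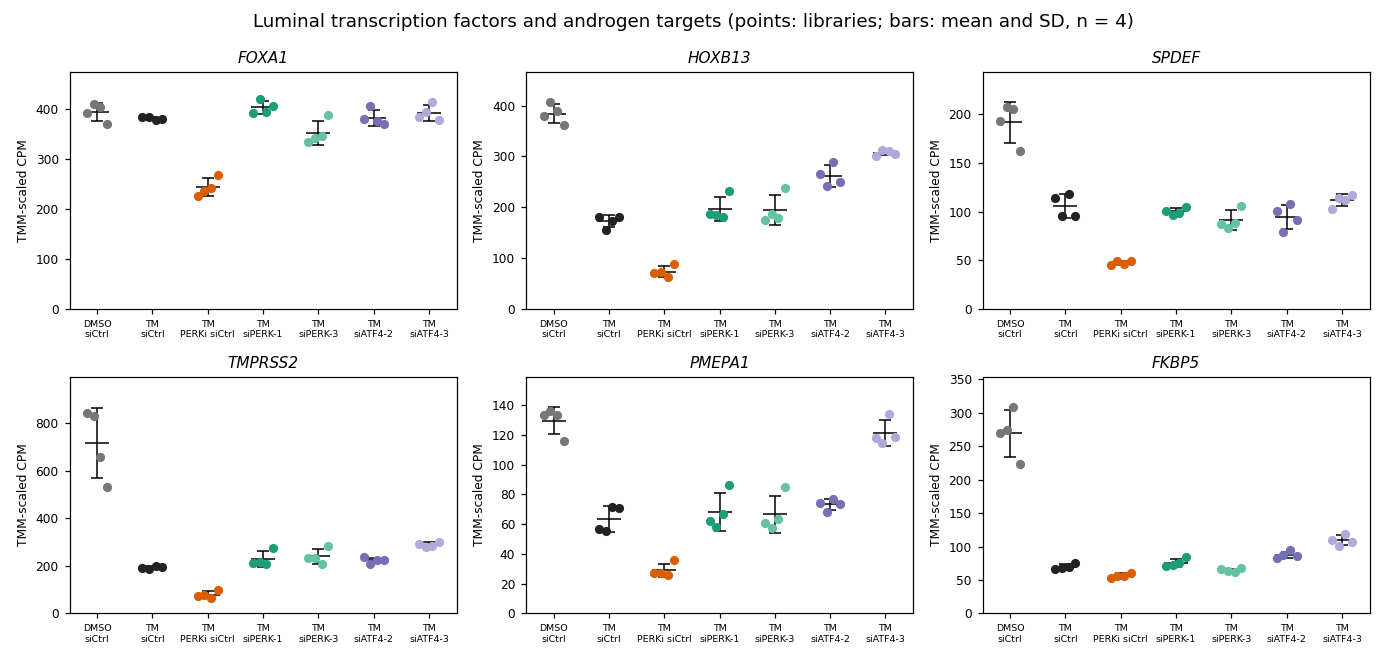
CPM in each library (points) with mean and SD (bars, n = 4) for the 3 luminal transcription factors and 3 androgen targets in the 7 groups. The inhibitor group is lowest in all 6 panels, and HOXB13, TMPRSS2, PMEPA1 and FKBP5 are higher with siATF4-3 than with tunicamycin alone.

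With the PERK siRNAs the pattern differed. Called higher were 12 genes with siPERK-1 and 7 with siPERK-3, beside 13.1% and 13.1% of all genes tested. Called lower was ELL2 with siPERK-1, and SORD and HERC3 with siPERK-3, beside 13.3% and 13.7% of all genes. A fit of the compared groups alone called 2 genes lower with siPERK-1, beside 1914 of all 13715 genes it tested. When the replicate number entered the fit as a block, 2 genes were called lower with siPERK-1 and 5 with siPERK-3. Of all 14314 genes tested, that fit called 2320 and 2334 lower. The 7 genes higher with siPERK-3 were all among the 12 of siPERK-1, so 20.6% of the 34 genes were higher with both oligos, compared with 8.18% of all genes tested. These 7 were OR51E1, ACPP, TARP, OR51E2, GNMT, STEAP1 and CAMKK2. The median change over the 34 genes was 0.13 and 0.07, and over all genes 0.00 with each oligo.

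In the main fit, which does not use the replicate number, none of the 3 luminal transcription factors was called with either oligo. The genes that the replicate block added to the lower calls are not named here. HOXB13 differed from TM siCtrl by 0.18 ± 0.10 (adjusted p = 0.180) and 0.17 ± 0.10 (adjusted p = 0.209), SPDEF by −0.07 ± 0.09 (adjusted p = 0.596) and −0.21 ± 0.09 (adjusted p = 0.0885), and FOXA1 by 0.08 ± 0.05 (adjusted p = 0.233) and −0.12 ± 0.05 (adjusted p = 0.0672). With siPERK-3, FOXA1 and SPDEF were called lower once replicate 4 of that group was left out (−0.17, adjusted p = 0.0103 and −0.30, adjusted p = 0.0189), and SPDEF also without TM siCtrl replicate 4 (−0.26, adjusted p = 0.0466). HOXB13 stood at 186, 185, 181 and 231 CPM with siPERK-1 and 174, 187, 178 and 238 CPM with siPERK-3, with replicate 4 the highest in each.

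OR51E1 was 3.81, 4.91, 5.53 and 5.87 CPM with siPERK-1 and 3.38, 2.38, 3.64 and 3.67 CPM with siPERK-3. Every one of these libraries lay above the TM siCtrl libraries and below the solvent libraries (2.47 ± 0.31, adjusted p = 4.37e-07 and 1.86 ± 0.34, adjusted p = 0.000112). OR51E2 held 5.41, 4.69, 6.38 and 7.23 CPM in TM siCtrl, 14.4, 16.8, 18.8 and 15.4 CPM with siPERK-1 and 11.7, 10.98, 10.4 and 14.2 CPM with siPERK-3 (1.47 ± 0.15, adjusted p = 5.48e-09 and 1.00 ± 0.16, adjusted p = 1.23e-05). The siPERK-1 mean of 16.3 ± 1.91 CPM stood at 113% of the solvent mean of 14.4 ± 2.37 CPM. Both olfactory receptor genes were therefore higher in every PERK siRNA library than in any library with tunicamycin and the control siRNA.

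ACPP was 53.4, 43.9, 91.2 and 117 CPM with siPERK-1 and 47.5, 41.6, 71.4 and 81.3 CPM with siPERK-3, against 48.5, 41.9, 50.8 and 67.7 CPM with solvent. All 8 siRNA libraries exceeded the TM siCtrl range (2.09 ± 0.29, adjusted p = 1.17e-05 and 1.76 ± 0.30, adjusted p = 0.000102), and replicates 3 and 4 were the highest of both groups. TARP was 16.8, 11.3, 17.0 and 20.7 CPM and 7.10, 7.15, 7.62 and 11.8 CPM (1.68 ± 0.18, adjusted p = 1.43e-07 and 0.73 ± 0.21, adjusted p = 0.0108). With siPERK-3 replicate 4 stood apart from the other libraries, and TARP was not called without TM siPERK-3 replicate 4 (0.52, adjusted p = 0.0738). GNMT, already higher with tunicamycin, rose further to 43.3, 40.0, 34.8 and 38.9 CPM and 45.7, 38.5, 36.8 and 39.4 CPM (0.96 ± 0.08, adjusted p = 1.97e-12 and 0.99 ± 0.08, adjusted p = 1.19e-12). Both GNMT groups lay above all DMSO siCtrl and TM siCtrl libraries.

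STEAP1 rose from 174, 169, 165 and 170.1 CPM to 212, 225, 221 and 230.4 CPM and 225, 227, 230.3 and 223 CPM (0.39 ± 0.05 and 0.42 ± 0.05), a small change with no overlap. CAMKK2 changed by 0.24 ± 0.05 and 0.16 ± 0.05, and with siPERK-3 it was not called without TM siPERK-3 replicate 2 (0.15, adjusted p = 0.0545). ABCC4 (0.20 ± 0.05) and MPHOSPH9 (0.25 ± 0.06) were higher with siPERK-1 alone among the oligos. The other siPERK-1 calls were lost in some of the fits that left out 1 library. MAF (0.61 ± 0.22, adjusted p = 0.0393) lost its call when any 1 of TM siCtrl replicates 1, 2 and 3 and TM siPERK-1 replicates 1, 3 and 4 was left out (0.46 to 0.64, adjusted p = 0.0576 to 0.135). SLC45A3 (0.31 ± 0.10, adjusted p = 0.0238) lost it when any 1 of TM siCtrl replicates 1, 2 and 4 and TM siPERK-1 replicates 3 and 4 was left out (0.25 to 0.31, adjusted p = 0.0523 to 0.0909), and ABHD2 (0.17 ± 0.06, adjusted p = 0.0258) when any 1 of TM siCtrl replicates 3 and 4 and TM siPERK-1 replicates 2 and 4 was left out (0.15 to 0.16, adjusted p = 0.0721 to 0.0828). Of the decreases, ELL2 with siPERK-1 (−0.26 ± 0.08, adjusted p = 0.0179) was not called when any 1 of TM siCtrl replicate 3 and TM siPERK-1 replicate 1 was left out (−0.19 to −0.23, adjusted p = 0.0574 to 0.0886), while SORD (−0.23 ± 0.04, adjusted p = 6.13e-05) and HERC3 (−0.39 ± 0.11, adjusted p = 0.00965) with siPERK-3 were called in each such fit. Without TM siPERK-1 replicate 4, 2 genes were called lower with siPERK-1, beside 1607 of all 14503 genes tested in that fit. Without TM siPERK-3 replicate 4, 4 genes were called lower with siPERK-3, beside 1656 of all 14505. A related pseudogene of SORD exists, so its reads may be split. Summed stromal markers were 86.2 to 154 CPM with siPERK-1 and 71.2 to 101 CPM with siPERK-3, and neuroendocrine markers 29.4 to 33.1 and 25.0 to 34.04 CPM. The part of these markers was not tested.

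**Figure D3:**
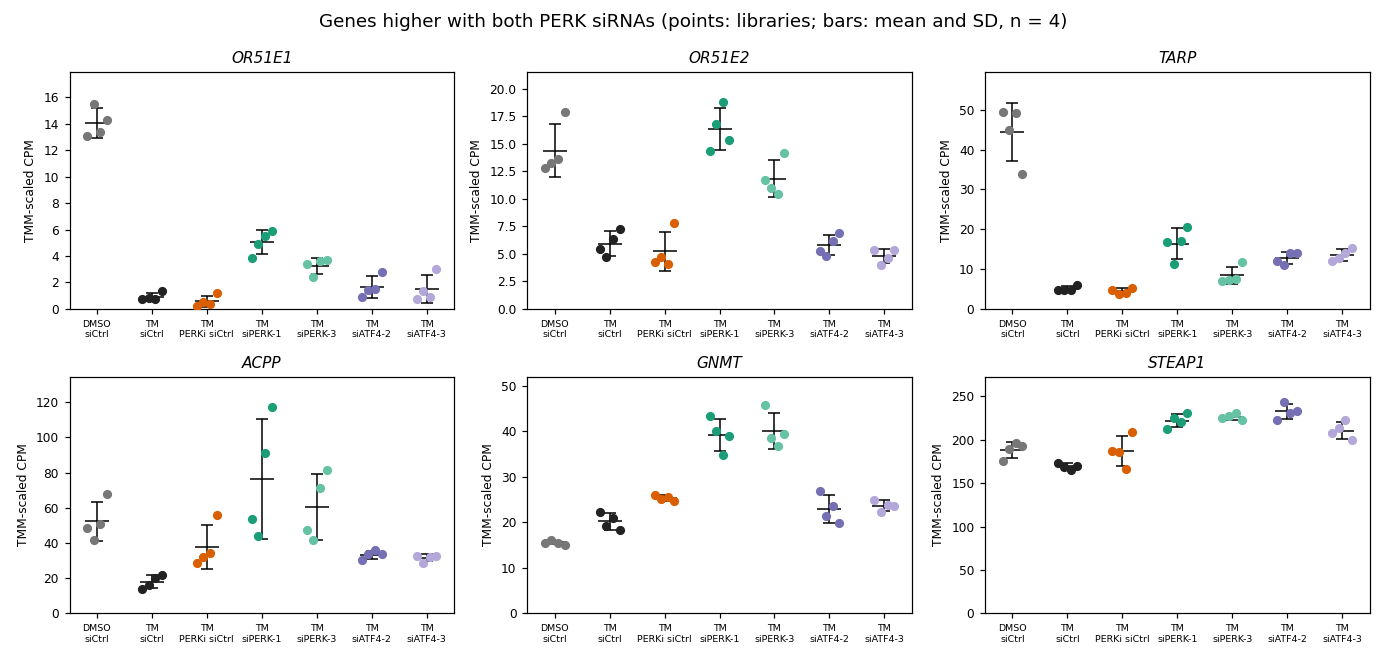
CPM in each library (points) with mean and SD (bars, n = 4) for 6 of the 7 genes called higher with both PERK siRNAs. Both PERK siRNA groups lie above TM siCtrl in each panel. Of these 6 genes, ACPP, GNMT and STEAP1 were also called higher with the inhibitor than in TM siCtrl.

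Depletion of ATF4 gave a further pattern in which HOXB13 rose while FOXA1 and SPDEF were not called. Called higher were 12 genes with siATF4-2 and 20 with siATF4-3, beside 28.4% and 31.2% of all genes tested. Called lower were 6 and 4 genes, beside 27.2% and 30.7%. The median change was 0.15 with siATF4-2 and 0.25 with siATF4-3. With both oligos 12 genes were higher (35.3% of the 34, 25.1% of all genes tested) and 3 lower (8.82%, against 24.3% of all genes). The 3 lower with both were NDRG1, ABHD2 and HERC3.

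HOXB13 was 266, 241, 289 and 249.6 CPM with siATF4-2 and 301, 312, 311 and 305 CPM with siATF4-3, all above the TM siCtrl libraries and below the solvent libraries (0.60 ± 0.10, adjusted p = 1.29e-05 and 0.84 ± 0.10, adjusted p = 7.43e-08). FOXA1 differed by 0.00 ± 0.05 and 0.04 ± 0.05, and SPDEF by −0.15 ± 0.09 and 0.08 ± 0.09, with libraries overlapping TM siCtrl. Without TM siATF4-2 replicate 3, SPDEF was called lower with siATF4-2 (−0.22, adjusted p = 0.0470).

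TARP showed the largest increase with both oligos, to 12.1, 11.1, 14.1 and 14 CPM and 12.1, 12.7, 14.2 and 15.4 CPM (1.33 ± 0.19, adjusted p = 1.65e-06 and 1.41 ± 0.19, adjusted p = 4.80e-07). NCAPD3 rose from 37.4, 40.0, 35.0 and 45.0 CPM to 64.7, 71.0, 73.5 and 66.4 CPM and 64.2, 67.6, 73.6 and 73.6 CPM (0.81 ± 0.07, adjusted p = 1.04e-12 and 0.83 ± 0.07, adjusted p = 3.12e-13). Neither gene's siRNA libraries overlapped TM siCtrl, and both remained below their solvent libraries. ELL2 (0.43 ± 0.08 and 0.56 ± 0.08), BMPR1B (0.39 ± 0.07 and 0.56 ± 0.07), STEAP1 (0.46 ± 0.05 and 0.31 ± 0.05), FOLH1 (0.37 ± 0.04 and 0.19 ± 0.04), ABCC4 (0.19 ± 0.05 and 0.38 ± 0.05) and FKBP5 (0.33 ± 0.07 and 0.65 ± 0.07) were higher with both as well. EAF2 rose by 0.43 ± 0.13 and 0.64 ± 0.13, and with siATF4-2 it was not called without TM siCtrl replicate 4 (0.31, adjusted p = 0.0535).

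ACPP stood at 30.4, 33.4, 36.1 and 33.5 CPM with siATF4-2 and 32.9, 28.6, 32.2 and 32.7 CPM with siATF4-3, all above TM siCtrl (0.90 ± 0.31, adjusted p = 0.0167 and 0.82 ± 0.31, adjusted p = 0.0277). Its call with siATF4-2 was lost without TM siCtrl replicate 1 (0.79, adjusted p = 0.0537). With siATF4-3 it was lost when any 1 of TM siCtrl replicates 1 and 2 and TM siATF4-3 replicates 1 and 4 was left out (0.71 to 0.80, adjusted p = 0.0515 to 0.0801). MAF was 9.49, 8.11, 8.63 and 10.6 CPM and 15.6, 15.4, 19.0 and 14.1 CPM (0.56 ± 0.22, adjusted p = 0.0332 and 1.36 ± 0.21, adjusted p = 3.05e-06). With siATF4-2 its libraries overlapped TM siCtrl, where replicate 4 was high, and the call was lost when any 1 of TM siCtrl replicates 1, 2 and 3 and TM siATF4-2 replicates 1 and 4 was left out (0.41 to 0.55, adjusted p = 0.0644 to 0.124). Without TM siCtrl replicate 4, the siATF4-2 difference was 0.85 (adjusted p = 0.000618).

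With siATF4-3, PMEPA1 reached 118, 115, 134 and 119 CPM, about its solvent level of 133, 136, 133 and 115.9 CPM (0.94 ± 0.13, adjusted p = 7.52e-07), whereas with siATF4-2 it held 74.1, 68.4, 77.2 and 73.6 CPM (0.21 ± 0.13, adjusted p = 0.170). FKBP5 was 109.9, 101, 119 and 107 CPM with siATF4-3, and TMPRSS2 292, 279, 283 and 303 CPM (0.58 ± 0.13), both still below every solvent library. CENPN (0.57 ± 0.09), ACSL3 (0.39 ± 0.08) and MPHOSPH9 (0.26 ± 0.06) were also called higher with siATF4-3. SLC45A3 (0.25 ± 0.10, adjusted p = 0.0381) lost its call when any 1 of TM siCtrl replicates 1, 2 and 4 and TM siATF4-3 replicates 1, 3 and 4 was left out (0.19 to 0.24, adjusted p = 0.0638 to 0.130). GNMT (0.22 ± 0.08, adjusted p = 0.0181) lost it when any 1 of TM siCtrl replicates 2 and 4 and TM siATF4-3 replicate 1 was left out (0.17 to 0.20, adjusted p = 0.0570 to 0.0975), and SORD (0.12 ± 0.04, adjusted p = 0.0172) when any 1 of TM siCtrl replicate 4 and TM siATF4-3 replicate 3 was left out (0.09 to 0.10, adjusted p = 0.0583 to 0.0866).

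NDRG1 showed the largest decrease with both oligos. It held 307, 314, 256 and 281 CPM in TM siCtrl, 197, 198, 163 and 208 CPM with siATF4-2 and 155, 175, 155 and 203 CPM with siATF4-3, without overlap (−0.60 ± 0.12, adjusted p = 0.000193 and −0.75 ± 0.12, adjusted p = 1.05e-05). ABHD2 was lower by smaller amounts (−0.23 ± 0.06 and −0.26 ± 0.06). HERC3 changed by −0.31 ± 0.11 and −0.25 ± 0.11. Its call with siATF4-2 was lost when any 1 of TM siATF4-2 replicates 1 and 2 was left out (−0.28 to −0.28, adjusted p = 0.0509 to 0.0529), and its call with siATF4-3 when any 1 of TM siCtrl replicates 2, 3 and 4 and TM siATF4-3 replicates 1, 2 and 3 was left out (−0.19 to −0.27, adjusted p = 0.0569 to 0.158). STEAP2 was lower with siATF4-3 (−0.20 ± 0.05, adjusted p = 0.000262) and stood at 0.01 ± 0.05 with siATF4-2. TRPM8 was lower with siATF4-2 (−0.48 ± 0.18, adjusted p = 0.0253), a call lost when any 1 of TM siCtrl replicates 3 and 4 and TM siATF4-2 replicates 1 and 2 was left out (−0.40 to −0.46, adjusted p = 0.0510 to 0.0870). ZBTB10 (−0.16 ± 0.05) and CAMKK2 (−0.13 ± 0.05) were called lower with siATF4-2, and CAMKK2 lost its call when any 1 of TM siCtrl replicate 2 and TM siATF4-2 replicates 2 and 3 was left out (−0.11 to −0.13, adjusted p = 0.0548 to 0.0920). Without TM siATF4-2 replicate 2, 3 genes were called lower with siATF4-2, beside 3720 of all 14504 genes tested in that fit. OR51E1 was not called with either oligo (0.88 ± 0.39, adjusted p = 0.0553 and 0.75 ± 0.40, adjusted p = 0.103), nor was OR51E2 (−0.03 ± 0.18 and −0.30 ± 0.19). Stromal markers summed to 55.3 to 86.1 CPM with siATF4-2 and 56.9 to 80.9 CPM with siATF4-3, within or below the TM siCtrl range, and neuroendocrine markers to 20.4 to 28.3 and 20.4 to 31.8 CPM.

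**Figure D4:**
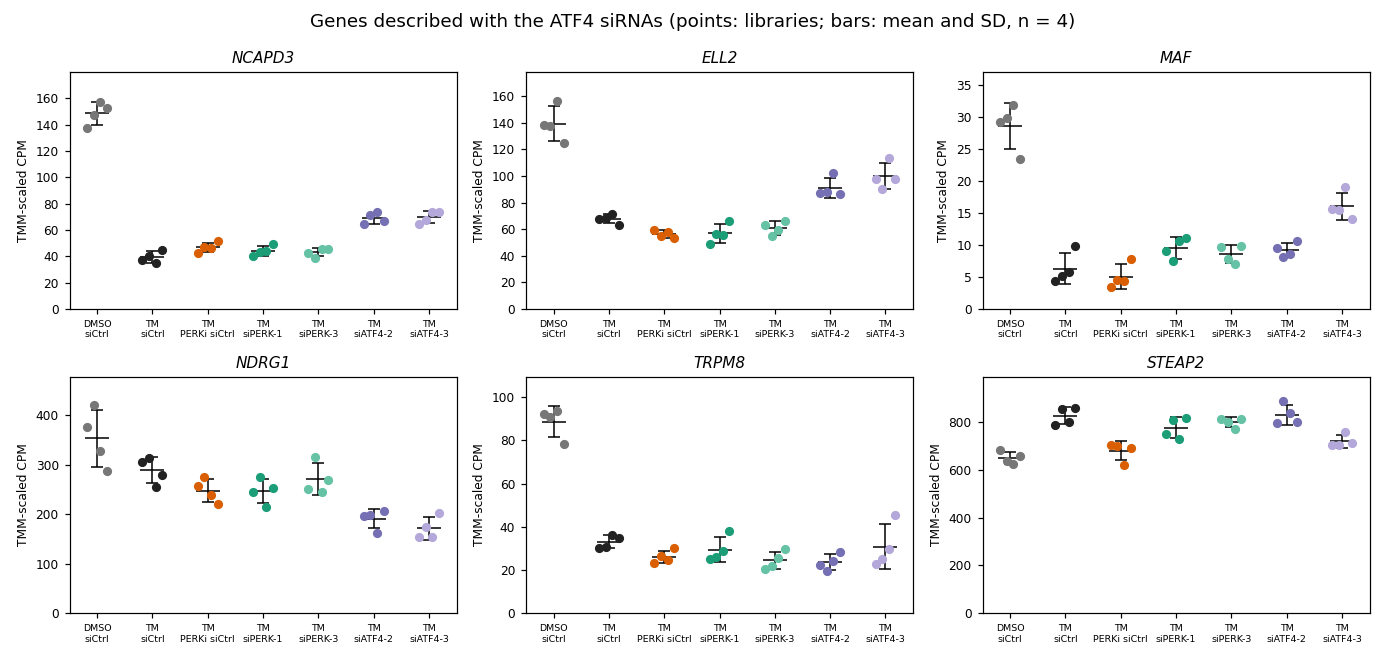
CPM in each library (points) with mean and SD (bars, n = 4) for 6 genes described with the ATF4 siRNAs. NCAPD3 and ELL2 are higher and NDRG1 lower in both ATF4 siRNA groups than in TM siCtrl. MAF is highest among the tunicamycin groups with siATF4-3, and STEAP2 is lower with siATF4-3 but not with siATF4-2.

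The inhibitor and the PERK siRNAs were compared directly, inhibitor against the mean of both siRNA groups. Of the 34 genes, 22 were called lower with the inhibitor and 2 higher, beside 26.1% and 25.8% of all genes tested. The median difference was −0.40 over the 34 genes and −0.01 over all genes, and 7 of the 34 were called lower by 2-fold or more, beside 1.94% of all genes. All 3 factors were among the lower ones: HOXB13 by −1.41 ± 0.09 (adjusted p = 1.02e-11), SPDEF by −1.01 ± 0.09 (adjusted p = 2.57e-10) and FOXA1 by −0.63 ± 0.04 (adjusted p = 3.27e-15). OR51E1 (−2.76 ± 0.34, adjusted p = 6.42e-08), TMPRSS2 (−1.57 ± 0.13, adjusted p = 4.87e-10) and OR51E2 (−1.40 ± 0.15, adjusted p = 1.18e-09) led the other genes, with no overlap of libraries. TARP (−1.39 ± 0.19) and PMEPA1 (−1.22 ± 0.13) completed the genes at 2-fold or more. ACPP, higher than TM siCtrl with either agent, was lower with the inhibitor than with the siRNAs by −0.84 ± 0.24 (adjusted p = 0.00622), and this call was lost in a fit of the compared groups alone (−0.84, adjusted p = 0.0621). EAF2 (0.77 ± 0.11, adjusted p = 2.15e-07) and ZBTB10 (0.50 ± 0.04, adjusted p = 6.89e-13) were higher with the inhibitor.

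**Figure D5:**
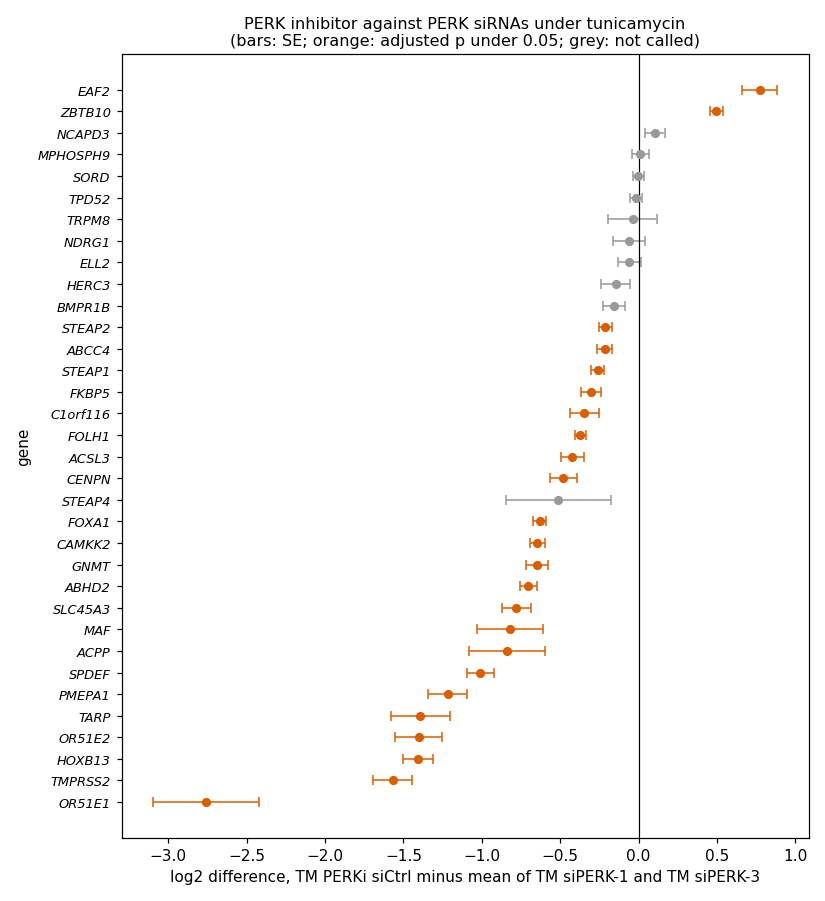
Log2 difference (points, bars are SE) of each of the 34 genes between the inhibitor group and the mean of both PERK siRNA groups, sorted by size. Orange points are called at an adjusted p under 0.05 and grey ones are not. EAF2 and ZBTB10 are the orange points to the right of 0, and OR51E1, TMPRSS2 and HOXB13 lie farthest to the left.

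The oligos of each pair were also compared. Between the PERK siRNAs, 4 of the 34 genes were called higher with siPERK-1 than with siPERK-3, beside 2.24% of all genes tested. TARP differed by 0.96 ± 0.18 (adjusted p = 0.00121) with overlapping libraries and ABCC4 by 0.28 ± 0.05 (adjusted p = 0.000987) without overlap. FOXA1 differed by 0.20 ± 0.05 (adjusted p = 0.00980), a call lost without TM siPERK-3 replicate 1 (0.17, adjusted p = 0.0630), and SORD by 0.16 ± 0.04 (adjusted p = 0.0188), a call lost when any 1 of TM siPERK-1 replicates 3 and 4 and TM siPERK-3 replicates 1, 2 and 3 was left out (0.13 to 0.16, adjusted p = 0.0568 to 0.0944). Without TM siPERK-3 replicate 1, 2 of the 34 genes were called higher, beside 180 of all 14502 genes tested in that fit. In a fit of these groups alone 7 were called higher, beside 351 of all 13439. Between the ATF4 siRNAs, 3 genes were called higher with siATF4-2 and 9 lower, beside 8.53% and 6.2% of all genes. MAF (−0.80 ± 0.20, adjusted p = 0.00731), PMEPA1 (−0.73 ± 0.13, adjusted p = 0.000317) and CENPN (−0.39 ± 0.09, adjusted p = 0.00420) were lower with siATF4-2 than with siATF4-3, and STEAP2 (0.21 ± 0.05) and FOLH1 (0.18 ± 0.04) higher. HOXB13 differed by −0.23 ± 0.10 (adjusted p = 0.113) and SPDEF by −0.23 ± 0.09 (adjusted p = 0.0882), which were not called. A fit of these 2 groups alone called both (adjusted p = 0.00418 and 0.0496), as did DESeq2 (adjusted p = 0.0417 and 0.0389), and SPDEF was also called without TM siATF4-2 replicate 3 (−0.30, adjusted p = 0.0273). The ATF4 transcript itself was lower with siATF4-3, by 1.06 on the log2 scale.

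Against the mean of the PERK siRNA groups, the mean of the ATF4 siRNA groups had 12 of the 34 genes higher and 7 lower, beside 31.6% and 32.3% of all genes tested. ELL2 (0.70 ± 0.06, adjusted p = 3.37e-12), NCAPD3 (0.67 ± 0.05, adjusted p = 5.92e-15) and FOLH1 (0.28 ± 0.03, adjusted p = 6.04e-11) were higher with ATF4 depletion and did not overlap. So was HOXB13 (0.54 ± 0.07, adjusted p = 2.87e-07), while FOXA1 (0.04 ± 0.03) and SPDEF (0.11 ± 0.06) were not called. SPDEF was called higher without TM siPERK-3 replicate 4 (0.15, adjusted p = 0.0382) or TM siATF4-2 replicate 2 (0.15, adjusted p = 0.0367). OR51E2 (−1.40 ± 0.12, adjusted p = 2.33e-12), ACPP (−1.06 ± 0.20, adjusted p = 6.34e-05) and GNMT (−0.77 ± 0.06, adjusted p = 2.48e-15) were higher with PERK depletion, as was OR51E1 (−1.35 ± 0.21) with overlapping libraries.

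Genes outside the 34 give the surroundings of these changes. Of 67 other androgen-response genes tested, 33 were lower and 22 higher with tunicamycin, beside 34.7% and 34.3% of all genes tested, with a median change of −0.16. The kallikrein genes KLK2 (−2.74) and KLK3 (−2.61), whose reads may be shared between these similar paralogs, and AKAP12 (−2.33) were lower, and PTPN21 (1.89), CDC14B (1.70) and SAT1 (1.63) higher. Against TM siCtrl, KLK3 differed by −2.74 with the inhibitor, by −0.63 (adjusted p = 0.0578) and −0.67 (adjusted p = 0.0446) with siPERK-1 and siPERK-3, and by 0.62 and 0.97 with siATF4-2 and siATF4-3, both called. KLK2 differed by −0.65 with the inhibitor and by 0.37 and 1.11 with siATF4-2 and siATF4-3, all called, and was not called with the PERK siRNAs (0.23 and 0.08). Of 13 androgen-response genes that also belong to the ER stress response, 9 were higher with tunicamycin, led by DNAJB9 (3.37), SEC24D (2.41) and LMAN1 (1.81), and 2 lower, UAP1 (−0.45) and CREB3L4 (−0.32). Of 9 that belong to sterol and lipid synthesis, 7 were lower, led by INSIG1 (−1.10), SCD (−0.68) and DBI (−0.47). With each PERK siRNA, 6 of those 9 were called higher, beside 13.1% of all genes, and DBI was called lower with siPERK-3 (−0.21, adjusted p = 0.00230).

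Of 41 coregulators of the androgen receptor tested, 22 were lower and 14 higher with tunicamycin, beside 34.7% and 34.3% of all genes tested (median −0.21, and −0.79 for the 31 target and luminal genes). HSP90AA1 (−1.37) and FKBP4 (−1.21), chaperone components of steroid receptor complexes, and the chromatin remodelling subunit SMARCA4 (−0.94) were among the lower ones, and TLE1 (1.59), KDM4C (0.56) and NCOA3 (0.53) among the higher ones. With the inhibitor 12 coregulators were higher and 9 lower, beside 18.2% and 17.5% of all genes. Of the genes just named, HSP90AA1 (0.59 and 0.98), FKBP4 (0.32 and 0.44) and SMARCA4 (0.19 and 0.29) were called higher with siPERK-1 and siPERK-3. TLE1 (−0.43 and −0.57) and NCOA3 (−0.38 and −0.25) were called lower with these oligos, and KDM4C was not called (−0.12 and −0.02). With siATF4-2 and siATF4-3, 23 and 23 were higher, beside 28.4% and 31.2% of all genes, and 8 and 8 lower, beside 27.2% and 30.7%. Of 10 luminal epithelial markers, 6 were higher with tunicamycin, among them CLDN7 (1.49), CDH1 (1.20) and KRT8 (1.09), and 3 lower, namely KLK2, KLK3 and KRT19 (−1.39). CLDN7, CDH1 and KRT8 thus moved opposite to the median of the 34 genes.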

How the data were processed

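Strand-specific RNA-seq libraries of LNCaP cells were made from total RNA, per the labels' protocols. The authors deposited raw read counts in 6 tables that also hold each gene's exon models and exon length in bases. The submitters' processing notes name featureCounts 1.5.0-p1 and TopHat2 2.1.0 with build hg19, and also DESeq2 1.10.1. Settings, the use of strand in counting included, are not given in those notes or the labels. The TM siCtrl columns recurred across the tables (20 repeated columns, 0 differing values) and were used once, and 1 line without a gene name held 0 counts.

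All 28 libraries entered 1 edgeR 4.0.16 fit in R 4.3.3 (filterByExpr by group, minimum count 10 and total 15, TMM, group means, robust quasi-likelihood F-test, two-sided). Benjamini-Hochberg adjustment covered the 14314 genes tested, separately for 10 comparisons, with calls under 0.05. The SE is the absolute log2 change over the square root of F. The fit was tested on simulated counts. The 34 genes and the gene lists were chosen with earlier results of these data known. Some genes of the lists, the receptor's own transcript included, are not reported here. FOXA1, HOXB13 and SPDEF were named in every comparison. Of the others, up to 6 called genes per direction were named by size of change (3 in direct comparisons), with mean log2 CPM of at least 1 and no overlap of libraries, and 3 per direction from other lists. STEAP4, OR51E2 and further genes given beside them were chosen after their values were seen, to account for each gene. Alternatives were RLE and upper-quartile scaling, DESeq2 1.42.0, limma-voom (limma 3.58.1), no filter, the replicate number as a block, only the compared groups, and leaving out each library. Depth was 10794637 to 17253801 counts per library, which leaves genes near 1 CPM with few reads behind each value.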

Additional observations from a re-analysis of the deposited data

Results flagged for a closer look

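For the 34 genes, 19 of 238 sets of 4 libraries held a highest or lowest library whose gap to the nearest other took more of the range than Dixon's critical value for 4 samples. Chance alone marks about 1 set in 20. No explanation was tested.

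Replicate 4 stood apart in several sets. HOXB13 was 231 CPM in TM siPERK-1 replicate 4 (others 181 to 186), and TMPRSS2 was 277 CPM there (207 to 215). In TM PERKi siCtrl replicate 4, PMEPA1 was 35.8 CPM (25.8 to 27.2), C1orf116 196 CPM (173 to 176) and OR51E2 7.84 CPM (4.08 to 4.67). In DMSO siCtrl replicate 4, OR51E2 was high at 17.9 CPM (12.8 to 13.6), while PMEPA1 was low at 115.9 CPM (133 to 136) and TPD52 low at 381 CPM (424 to 429.8). TARP was 6.10 CPM in TM siCtrl replicate 4 (4.69 to 4.87) and 11.8 CPM in TM siPERK-3 replicate 4 (7.10 to 7.62), where SORD was 524 CPM (477 to 481). HERC3 was 243 CPM in TM siATF4-2 replicate 4 (195 to 202).

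The other sets involved further libraries. ELL2 was 102 CPM in TM siATF4-2 replicate 3 (86.2 to 87.9) and ABHD2 1036 CPM in replicate 2 of that group (965 to 977). ACPP was low at 28.6 CPM in TM siATF4-3 replicate 2 (32.2 to 32.9). In DMSO siCtrl replicate 3, EAF2 was 9.85 CPM (7.29 to 7.51) and FOLH1 479 CPM (516 to 523). ABCC4 was low at 369 CPM in TM siCtrl replicate 1 (419 to 422), and TPD52 was 401 CPM in TM siPERK-1 replicate 2 (372 to 377).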

How the results depend on the processing

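Of 179 called changes of the 34 genes over the 10 comparisons, 149 kept direction and call under every alternative run, 30 lost the call under at least 1, and 0 changed sign. RLE scaling lost 2 of the 179 calls, upper-quartile factors 3, DESeq2 1, limma-voom 0, no filter on low counts 7 and fitting only the compared groups 4. With the replicate number as a block, 0 calls were lost, and counts of genes called lower rose from 1 to 2 with siPERK-1 and from 2 to 5 with siPERK-3. For all genes tested, the same counts rose from 1910 to 2320 and from 1959 to 2334. The labels do not say that a number marks a shared experiment. With group means removed, samples with the same number correlated at −0.01 to 0.30 over 84 pairs (median 0.09), 31 of them above 0.1. Samples with different numbers correlated at −0.19 to 0.12 over 252 pairs (median −0.03), 1 of them above 0.1. All 28 of 28 samples correlated best with their own number, a likeness that the main fit does not use. Over all genes, the block raised calls between the PERK siRNAs from 321 higher and 356 lower to 550 and 645. Fitting only the compared groups gave 2 genes lower with siPERK-1 and 7 higher with siPERK-1 than with siPERK-3 (4 in the fit of all groups). Among all genes, those fits called 1914 of 13715 lower and 351 of 13439 higher. Leaving out 1 library gave 0 to 2 genes lower with siPERK-1, up to 4 lower with siPERK-3, as few as 3 lower with siATF4-2, and as few as 2 higher with siPERK-1 than with siPERK-3. Among all genes, such fits called 1604 to 1774 lower with siPERK-1, 1600 to 1864 with siPERK-3 and 3549 to 3866 with siATF4-2. They called 180 to 286 higher with siPERK-1 than with siPERK-3. The cause of these shifts was not tested. Low counts limit OR51E1 and STEAP4, with 2 to 45 and 2 to 14 counts per library in the groups other than DMSO siCtrl and TM siPERK-1.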

Other observations

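Steroid receptor and lineage genes outside the 34 also differed between groups. NR3C1, the glucocorticoid receptor, which shares response elements and targets such as FKBP5 with the androgen receptor, stood at 0.329 ± 0.0682 CPM with solvent and 0.907 ± 0.122 CPM with tunicamycin (1.45 ± 0.36, adjusted p = 0.000474). It was 2.73 ± 0.535 CPM with the inhibitor (1.56 ± 0.25, adjusted p = 3.46e-06) and 0.334 ± 0.177 CPM with siATF4-2 (−1.45 ± 0.39, adjusted p = 0.00160). With siATF4-3 it was 0.0225 ± 0.0450 CPM, from at most 1 count per library, so no fold is given. The NR3C1 levels with solvent, tunicamycin alone and siATF4-2, all under 1 CPM, also rest on few counts, so the size of those changes is uncertain. With the PERK siRNAs NR3C1 was not called (0.12 ± 0.30 and −0.49 ± 0.34).

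GATA2, a zinc finger factor that acts with the androgen receptor at enhancers, stood at 221 ± 16.1 CPM with solvent, 137 ± 9.95 CPM with tunicamycin (−0.70 ± 0.09, adjusted p = 3.02e-07) and 63.3 ± 10.3 CPM with the inhibitor (−1.11 ± 0.10, adjusted p = 2.72e-09). With siPERK-1 and siPERK-3 it differed from TM siCtrl by −0.24 ± 0.09 (adjusted p = 0.0594) and −0.26 ± 0.10 (adjusted p = 0.0478). With siATF4-2 and siATF4-3 it differed from TM siCtrl by 0.54 ± 0.09 (adjusted p = 2.20e-05) and 0.73 ± 0.09 (adjusted p = 2.07e-07).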
